A study of Homo sapiens with 27 samples.

Results

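AMT, ATP23, C12orf66, KIF21B, LPP, MFSD4A, RHBDD1, TARDBP, TMEM245 and ZFP90 were lower with each of 2 short hairpin RNAs (shRNA) against SIRT3 than with a control shRNA in 3 human diffuse large B-cell lymphoma (DLBCL) cell lines. They are 10 of the 27115 genes listed for every library. They were chosen by their measured differences from control in each line, so those differences are given as values without a test. Fitted line by line with limma, 12 of the 10014 genes tested in every line (0.12%) were lower by over 1.5-fold at an adjusted p under 0.05 in all 6 contrasts. These were the 10 genes, SIRT3 itself and 1 further gene not listed here. The rule used these contrasts, so that share says nothing about the genes.

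RNA was sequenced from Karpas422, a line of high oxidative phosphorylation gene expression, OCI-Ly1, a germinal center B-cell like line, and HBL1, an activated B-cell like line. Cells of each line carried the control shRNA (shCTRL, a scrambled sequence), shSIRT3-1 or shSIRT3-2 for 8 days, with 3 libraries a group, 9 groups and 27 libraries. The controls carried the same kind of lentiviral vector as the other groups, with a puromycin resistance gene and yellow fluorescent protein. A single control shRNA was used in each line and both SIRT3 shRNAs are compared with the same control libraries, so loss of SIRT3 and any other effect that the 2 SIRT3 shRNAs share cannot be told apart in these libraries.

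SIRT3 is a deacetylase of the mitochondrial matrix that acts on many metabolic enzymes, and its loss in lymphoma cells was studied here for its effect on amino acid supply and on the transcription factor ATF4. The 10 genes belong to no single pathway. AMT encodes the aminomethyltransferase of the mitochondrial glycine cleavage system, ATP23 a mitochondrial protease linked to assembly of ATP synthase, and C12orf66 (now KICS2) a subunit of KICSTOR, which holds a brake on mTORC1 at the lysosome when amino acids are scarce. TARDBP encodes the RNA-binding protein TDP-43, and ZFP90 a zinc finger protein with a KRAB repressor domain. KIF21B encodes a kinesin motor and LPP a LIM domain protein of cell adhesions related to zyxin. RHBDD1 encodes a rhomboid protease of the endoplasmic reticulum, while MFSD4A and TMEM245 encode membrane proteins with many transmembrane segments.

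Levels are in CPM, reads scaled to the total of a library, in which 1 read has the same worth for every gene of that library. Reads on genes ranged from 28694398 to 53405456 (median 45669254). The B-cell markers CD79A, CD79B, MS4A1, PAX5 and CD22 lay between 52.1 and 577 CPM in control cells of all 3 lines, while CD14 of myeloid cells and KRT8 of epithelial cells stayed at or below 0.15 CPM in every library, and CD3E of T cells and LYZ of myeloid cells at or below 0.474 and 0.535 CPM. EPCAM, an epithelial gene, was at 5.98 CPM in HBL1 controls and CD3D, a T-cell gene, at 1.49 CPM in Karpas422 controls. The second shCTRL library of OCI-Ly1 stood apart from the other controls of that line for several genes. It held 198 CPM of KIF21B against 40.1 and 60.8, and 326 CPM of ATF4 against 152 and 129. For some of the results, values without it are given beside them. In HBL1 the third shSIRT3-1 library stood apart from the other 2 libraries of its group. Bulk levels do not separate fewer cells of a kind from less RNA per cell.

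SIRT3 mRNA was lower with both shRNAs in every line, more so with shSIRT3-1. In Karpas422 SIRT3 was at 9.99, 9.14 and 10.2 CPM in controls, at 2.44, 2.79 and 2.57 CPM with shSIRT3-1 and at 6.24, 5.32 and 4.41 CPM with shSIRT3-2. In OCI-Ly1 SIRT3 was at 10.7, 13.8 and 9.98 CPM, then 2.23, 1.06 and 1.62 CPM, then 6.17, 4.06 and 6.03 CPM. In HBL1 SIRT3 was at 13.5, 14.2 and 16.4 CPM, then 2.13, 2.39 and 2.00 CPM, then 2.84, 3.12 and 3.82 CPM. The libraries of the 3 shRNAs did not overlap in any line. Over the 3 lines the log2 difference from control was -2.45 (SE 0.17, limma adjusted p = 3.8e-10) with shSIRT3-1 and -1.37 (SE 0.17, limma adjusted p = 2.2e-06) with shSIRT3-2.

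**Figure D1:**
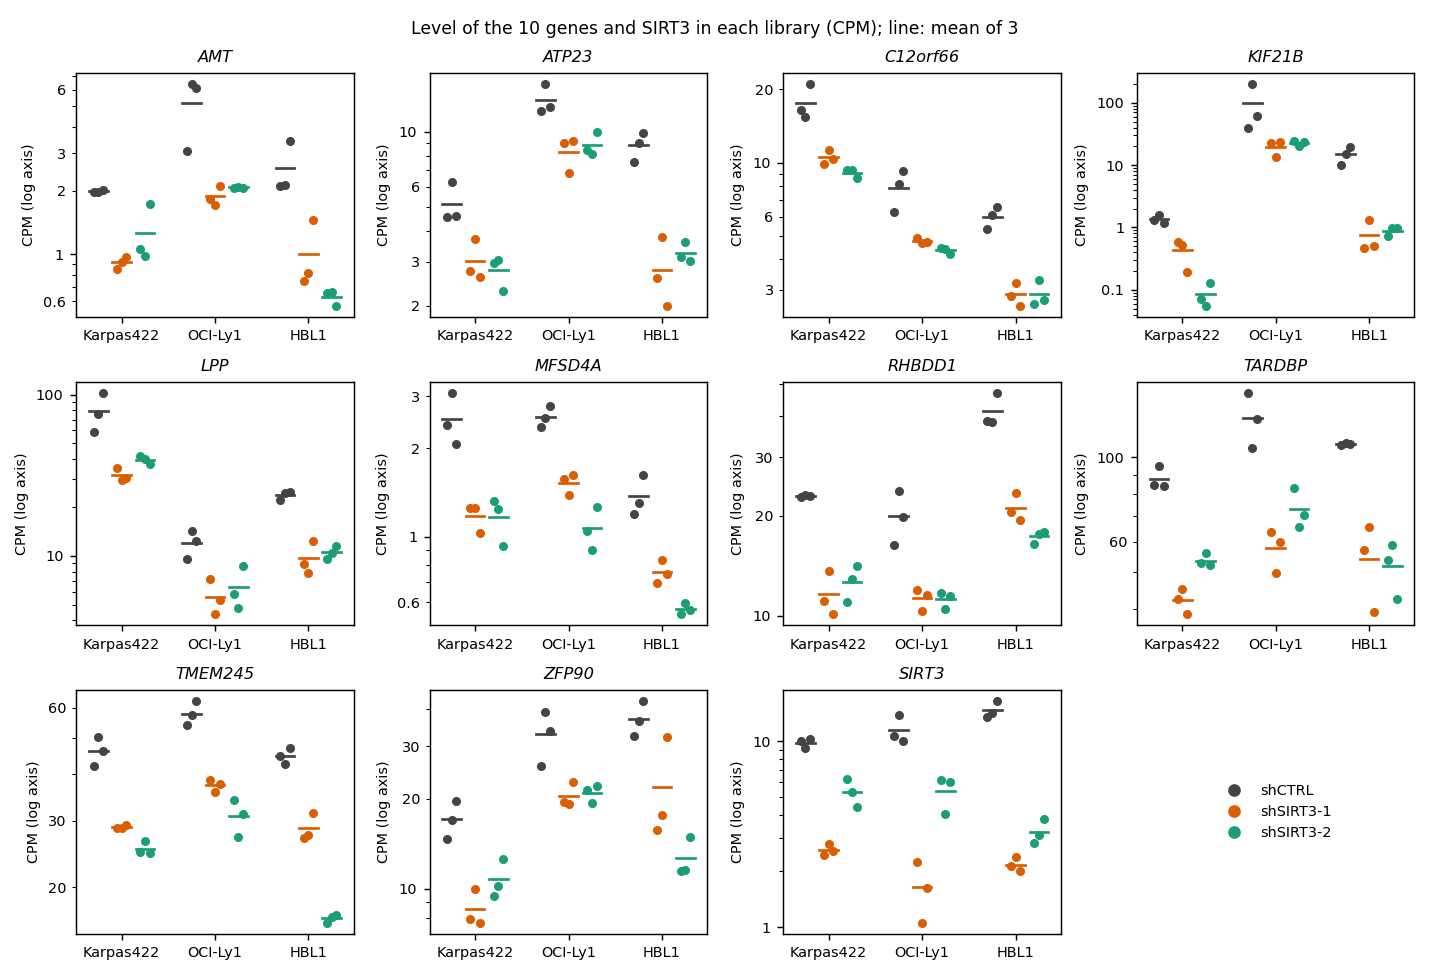
CPM on log axes of the 10 genes and SIRT3 in every library, by cell line and shRNA, with dots for the 3 libraries of a group and a line for their mean. For each of the 10 genes all 6 knockdown libraries of a line lie below its 3 controls, while SIRT3 is the only panel in which shSIRT3-1 lies below shSIRT3-2 in all 3 lines.

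For 8 of the 10 genes the RefSeq promoter table (GRCh38.p14) holds the 300 bases around the start, and 8 motifs of factors tied to amino acid stress or housekeeping promoters were counted on both strands of it. The ATF4 composite element, TGATGNAA, was in 0 of the 8 genes and in 3.62% of the table's 35116 promoters. The cyclic AMP response element, TGACGTCA, was in LPP alone among the 8 and in 1.85% of all promoters. A member was counted if the promoter of any of its annotated starts held the motif, and LPP has 7. The shares over all are per promoter, so the 2 measures are not alike. The E-box CACGTG was in C12orf66 and RHBDD1 and in 7.26% of all. The stretches upstream of the start that hold these matches are shown, with the motif in capitals, because bZIP factors of the ATF family and E-box factors bind such letters.
LPP, chr3:188153798-188153827, plus strand: attcaggccccTGACGTCAgcctccagcgc
RHBDD1, chr2:226836031-226836053, plus strand: tgcgtgatgacgCACGTGcgcgc
The LPP match begins 89 bases before 1 of 7 annotated starts, and the RHBDD1 match 11 bases before its start. The E-box of C12orf66 lies 30 bases after its start. The ETS motif CCGGAAG was in C12orf66 (10.3% of all promoters), CCAAT in AMT and LPP (34.6%) and the SP1 motif GGGCGG in ATP23, LPP, TARDBP and TMEM245 (44.95%). The NRF1 motif and the YY1 motif AAGATGGC were in 0 of the 8 genes, against 1.24% and 2.89% of all. No motif was shared by more than 4 of the 8 genes. A match describes letters only.

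The genes lie on 6 chromosomes in hg19, AMT (3:49454211-49460118) and LPP (3:187871072-188608460) on chromosome 3, ATP23 (12:58299822-58352931) and C12orf66 (12:64580096-64616076) on chromosome 12, KIF21B (1:200938518-200992842), MFSD4A (1:205538013-205572046) and TARDBP (1:11072401-11090585) on chromosome 1, RHBDD1 at 2:227700297-227863931, TMEM245 at 9:111777415-111882227 and ZFP90 at 16:68563993-68609975. Their 3′ untranslated regions had a median length of 2448 bases, against 1127.5 bases over the 11848 tested genes with a coding transcript, and 8 of the 10 were longer than that median. LPP had the longest at 16196 bases. AMT with 765 bases and KIF21B with 291 bases were the exceptions. These lengths, and the mRNA lengths behind the levels per kilobase below, are those of a single transcript per gene. It was the annotated transcript with the longest coding sequence, and which transcripts the cells used was not tested.

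KIF21B showed the deepest falls and the widest spread of levels. In Karpas422 KIF21B was at 1.32, 1.56 and 1.18 CPM in controls, at 0.579, 0.520 and 0.191 CPM with shSIRT3-1 and at 0.0723, 0.0557 and 0.127 CPM with shSIRT3-2. In OCI-Ly1 KIF21B was at 40.1, 198 and 60.8 CPM, then 22.8, 13.3 and 23.3 CPM, then 24.1, 20.1 and 23.8 CPM. In HBL1 KIF21B was at 9.97, 15.02 and 19.8 CPM, then 0.476, 1.31 and 0.504 CPM, then 0.732, 0.964 and 0.967 CPM. All 6 knockdown libraries lay below all 3 controls in every line. With shSIRT3-1 the group means stood at 31.8% of control in Karpas422, 19.9% for OCI-Ly1 and 5.11% for HBL1. With shSIRT3-2 they stood at 6.28%, 22.7% and 5.95%. Without the second OCI-Ly1 control the OCI-Ly1 values became 39.3% and 44.9%. The second shSIRT3-2 library of Karpas422 held 6 reads of KIF21B (0.0557 CPM, 95% exact Poisson interval 0.0204 to 0.121 CPM, counting error only), so its level there rests on few reads.

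LPP, by contrast, varied little in its share of control. In Karpas422 LPP was at 59.0, 75.4 and 103 CPM in controls, at 35.2, 29.7 and 30.4 CPM with shSIRT3-1 and at 41.7, 39.7 and 37.1 CPM with shSIRT3-2. In OCI-Ly1 LPP was at 9.59, 14.2 and 12.4 CPM, then 7.15, 4.36 and 5.30 CPM, then 5.85, 4.78 and 8.71 CPM. In HBL1 LPP was at 22.2, 24.7 and 25.1 CPM, then 8.85, 7.79 and 12.3 CPM, then 9.63, 10.4 and 11.5 CPM. The means ranged from 40.2% to 53.4% of control over the 6 contrasts with all libraries, and the 2 groups came closest in OCI-Ly1, where the highest knockdown library was at 8.71 CPM and the lowest control at 9.59 CPM.

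AMT was low in all lines. In Karpas422 AMT was at 1.98, 1.96 and 2.02 CPM in controls, at 0.857, 0.923 and 0.976 CPM with shSIRT3-1 and at 1.06, 0.983 and 1.74 CPM with shSIRT3-2. In OCI-Ly1 AMT was at 3.08, 6.36 and 6.13 CPM, then 1.83, 1.71 and 2.10 CPM, then 2.07, 2.08 and 2.07 CPM. In HBL1 AMT was at 2.11, 2.12 and 3.42 CPM, then 0.746, 0.819 and 1.45 CPM, then 0.654, 0.665 and 0.573 CPM. The third shSIRT3-2 library of Karpas422 came close to the controls, and the mean of that group was the smallest fall of AMT, at 63.3% of control, against 24.7% in HBL1 with the same shRNA.

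ATP23, the other mitochondrial member, was at 5.13 ± 1.00 CPM (SD, n = 3) in Karpas422 controls, 13.4 ± 1.84 CPM in OCI-Ly1 and 8.81 ± 1.17 CPM in HBL1. With the SIRT3 shRNAs it stood at 31.6% and 36.9% of control in HBL1 and between 54.0% and 66.2% in the other 2 lines. C12orf66 varied least between contrasts. Its controls were at 17.6 ± 2.98 CPM in Karpas422, 7.90 ± 1.51 CPM in OCI-Ly1 and 5.99 ± 0.615 CPM in HBL1, and its means with a SIRT3 shRNA stood between 48.0% and 60.4% of control, a range of 0.34 on the log2 scale over the 6 contrasts.

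TARDBP had the highest level per length of the 10 genes in control cells of every line, at 20.9, 30.2 and 25.8 CPM per kilobase of mRNA in Karpas422, OCI-Ly1 and HBL1. In Karpas422 TARDBP was at 84.4, 94.6 and 83.9 CPM in controls, at 42.5, 45.1 and 38.7 CPM with shSIRT3-1 and at 52.6, 56.0 and 52.0 CPM with shSIRT3-2. In OCI-Ly1 TARDBP was at 148, 106 and 126 CPM, then 63.6, 49.8 and 59.8 CPM, then 83.1, 65.4 and 70.6 CPM. The shSIRT3-1 libraries lay below the shSIRT3-2 libraries in both of these lines. In HBL1 TARDBP was at 107, 109 and 108 CPM, then 57.1, 65.6 and 39.2 CPM, then 53.7, 58.9 and 42.4 CPM, and the libraries of the SIRT3 shRNAs overlapped. At 3650 to 14258 reads a library, TARDBP had the highest lowest count of the 10 genes.

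ZFP90 held 1 library that came close to its controls. In Karpas422 ZFP90 was at 14.7, 17.0 and 19.7 CPM in controls, at 7.94, 9.99 and 7.70 CPM with shSIRT3-1 and at 9.49, 10.2 and 12.6 CPM with shSIRT3-2. In OCI-Ly1 ZFP90 was at 25.8, 39.0 and 33.8 CPM, then 19.5, 19.1 and 22.7 CPM, then 21.5, 19.3 and 22.0 CPM. In HBL1 ZFP90 was at 32.4, 36.3 and 42.3 CPM, then 15.7, 17.6 and 32.1 CPM, then 11.5, 11.5 and 14.9 CPM. The third shSIRT3-1 library of HBL1 nearly reached the lowest control. With it the shSIRT3-1 mean in HBL1 was 59.0% of control, and without it 45.1%.

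TMEM245 was the only member whose shSIRT3-2 libraries lay below its shSIRT3-1 libraries in every line. In Karpas422 TMEM245 was at 42.0, 50.3 and 46.1 CPM in controls, at 28.7, 28.7 and 29.4 CPM with shSIRT3-1 and at 24.9, 26.5 and 24.6 CPM with shSIRT3-2. In OCI-Ly1 TMEM245 was at 53.9, 57.4 and 62.5 CPM, then 38.7, 35.8 and 37.6 CPM, then 34.2, 27.2 and 31.3 CPM. In HBL1 TMEM245 was at 44.6, 42.6 and 46.9 CPM, then 26.99, 27.5 and 31.5 CPM, then 16.1, 16.6 and 16.9 CPM. The step between the SIRT3 shRNAs was widest in HBL1, where shSIRT3-1 left 64.1% of control and shSIRT3-2 left 36.98%.

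RHBDD1 was at 23.0 ± 0.151 CPM in Karpas422 controls, 19.96 ± 3.72 CPM in OCI-Ly1 and 41.4 ± 4.87 CPM in HBL1, and stood between 41.9% and 56.6% of control with the SIRT3 shRNAs. MFSD4A had few reads, 56 to 304 a library, and was at 2.52 ± 0.513 CPM, 2.55 ± 0.205 CPM and 1.37 ± 0.219 CPM in controls. It stood between 41.4% and 59.7% of control. In HBL1 its shSIRT3-2 libraries, at 0.547, 0.599 and 0.563 CPM, lay below its shSIRT3-1 libraries, at 0.700, 0.837 and 0.747 CPM.

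**Figure D2:**
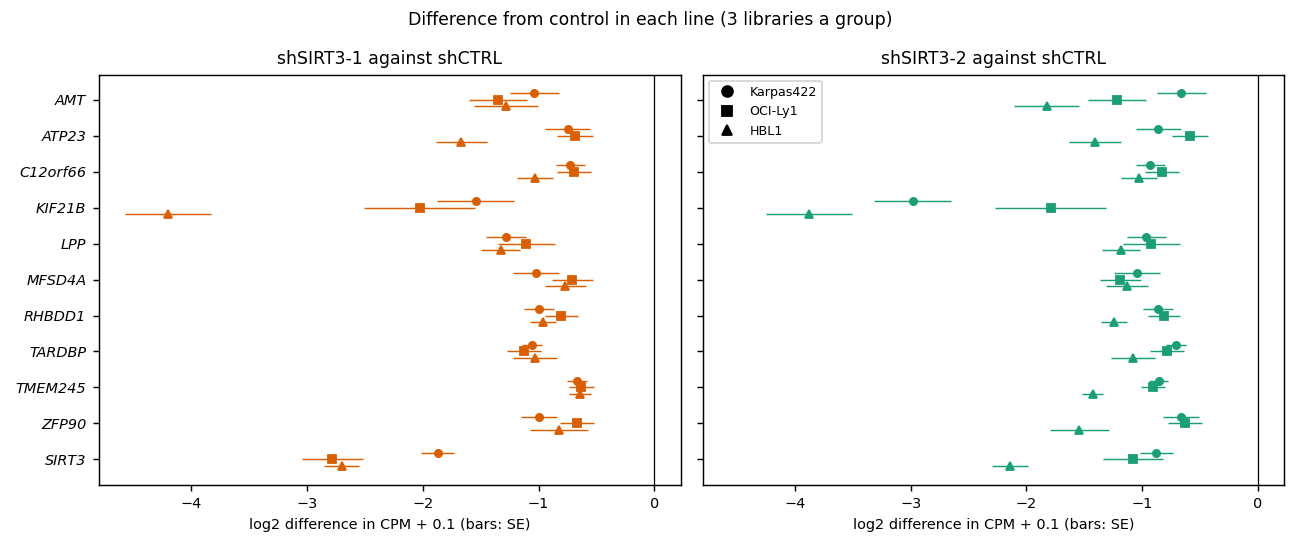
Log2 differences from control on the log2(CPM + 0.1) scale, with standard errors as bars, for each SIRT3 shRNA and line, n = 3 libraries a group, circles for Karpas422, squares for OCI-Ly1 and triangles for HBL1. All points of the 9 genes other than KIF21B lie between -0.59 and -1.83, KIF21B reaches -4.20 in HBL1, and SIRT3 lies further from 0 with shSIRT3-1 than with shSIRT3-2.

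Every member had all 6 knockdown libraries below the 3 controls in every line, as 143 of the 10014 genes tested in every line did (1.43%, and 16.1%, 6.97% and 15.4% within Karpas422, OCI-Ly1 and HBL1 alone). The genes were chosen for that direction. In 5 of the 30 pairs of member and line the gene passed the filter on low values, at least 1 CPM in 3 libraries, only through its controls, and there it had to differ. These were AMT in Karpas422 and HBL1, KIF21B in Karpas422 and HBL1, and MFSD4A in HBL1. Just inside the rule were ATP23, LPP and KIF21B, all with shSIRT3-2 in OCI-Ly1, at log2 differences of -0.59, -0.92 and -1.79. Just outside were ANO8 at -0.58 with shSIRT3-2 in Karpas422 and CD55 at -0.94 with shSIRT3-2 in OCI-Ly1. In all, 23 genes met the rule in 5 of the 6 contrasts. The rule was met least often in OCI-Ly1, where 0.678% of genes tested were lower with both shRNAs, against 4.79% in Karpas422 and 7.87% in HBL1. Refitted without the second OCI-Ly1 control 3 of the 10 genes met the rule, without the third control 0, and without the first all 10. Without any 1 of its 6 knockdown libraries 1 to 3 did. Without the second control, the OCI-Ly1 means with shSIRT3-1 and shSIRT3-2 came to 67.4% and 71.8% of control for ATP23, 68.6% and 70.3% for ZFP90, 62.5% and 62.1% for RHBDD1, 50.9% and 58.6% for LPP, and 40.8% and 44.96% for AMT. These lie nearer to control than with all 3 controls. C12orf66, MFSD4A, TARDBP and TMEM245 ranged from 41.8% to 64.2% without it, against 41.97% to 64.5% with it. The HBL1 means with shSIRT3-1 were also computed without the third shSIRT3-1 library. They fell from 39.4% to 30.7% of control for AMT, from 40.3% to 34.7% for LPP and from 64.1% to 60.9% for TMEM245. ZFP90 fell as given above. They rose from 31.6% to 36.0% for ATP23 and from 49.9% to 56.8% for TARDBP. For C12orf66, KIF21B, MFSD4A and RHBDD1 they rose by less.

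The comparison of the SIRT3 shRNAs with each other was not used by the rule. SIRT3 itself was 2.12-fold higher with shSIRT3-2 than with shSIRT3-1 over the 3 lines (log2 difference 1.08, 95% CI 0.72 to 1.44, limma adjusted p = 4.6e-05). Of all genes tested, 11.3% differed between the shRNAs by over 1.5-fold at an adjusted p under 0.05, 5.27% higher and 6.05% lower with shSIRT3-2, and 31.7% passed on the adjusted p alone. On the adjusted p alone 2 of the 10 genes passed. None differed by over 1.5-fold as well in the limma fit over 3 lines, nor with edgeR or DESeq2. In the limma fit 3 of 10 had an unadjusted p under 0.05, a share not computed over all genes. The intervals bound these differences to different degrees. RHBDD1 (-0.05, 95% CI -0.23 to 0.12), C12orf66 (-0.11, 95% CI -0.29 to 0.06) and ATP23 (0.08, 95% CI -0.22 to 0.38) had intervals that stayed within 0.38 of 0 on the log2 scale. AMT (-0.01, 95% CI -0.37 to 0.35) and ZFP90 (-0.12, 95% CI -0.42 to 0.19) were similar, LPP was at 0.22 (95% CI -0.03 to 0.46), and KIF21B (-0.30, 95% CI -1.02 to 0.43) was bounded poorly.

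TMEM245 was lower with shSIRT3-2 than with shSIRT3-1 over the lines by a small step (log2 difference -0.42, SE 0.08, limma adjusted p = 0.00023), and MFSD4A likewise (-0.29, SE 0.10, limma adjusted p = 0.036). Neither reached 1.5-fold. TARDBP was higher with shSIRT3-2 by 0.21 (SE 0.09), which did not pass the test over the lines (limma adjusted p = 0.078). By sign, 7 of the 10 genes were lower and 3 higher with shSIRT3-2, several of them close to 0. The median difference over all genes tested was 0.0005, and the share of all genes by sign was not computed. AMT, at -0.01, changed sign with a pseudocount of 1 (0.01), with quantile normalization (0.08) and without replicate 3 (0.06).

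**Figure D3:**
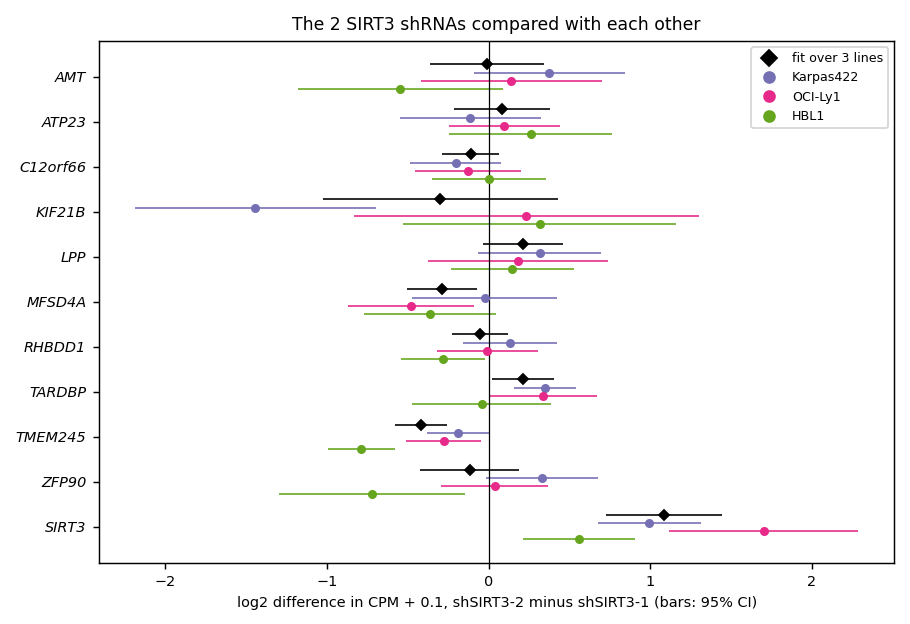
Log2 difference in CPM + 0.1 of shSIRT3-2 minus shSIRT3-1 with 95% confidence intervals, for the fit over 3 lines (diamonds, 27 libraries) and for each line (circles, 9 libraries). SIRT3 lies to the right of 0 in every fit, at 1.08 over the lines, whereas the 10 genes scatter around 0, from -0.42 for TMEM245 to 0.22 for LPP over the lines.

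Within single lines, 3 members differed between the SIRT3 shRNAs past the test. KIF21B in Karpas422 was lower with shSIRT3-2 by a log2 difference of -1.44 (SE 0.33, limma adjusted p = 0.0152), a line where 11.5% of all genes differed and 4.67% were lower. With a pseudocount of 1 in place of 0.1 that difference was -0.39 (limma adjusted p = 0.0528), and it was -1.22 and -1.28 without the first or the second shSIRT3-1 library (limma adjusted p = 0.061 and 0.0504). It was larger with a pseudocount of 0.01 (-2.13), edgeR (-2.39) and DESeq2 (-2.41). Over all alternatives the adjusted p ran from 7.9e-05 (DESeq2) to 0.0937 (quantile normalization, -0.98). In HBL1, where 27.9% of all genes differed and 13.1% were lower, TMEM245 was lower with shSIRT3-2 by -0.79 (SE 0.09, limma adjusted p = 0.00082) and ZFP90 by -0.72 (SE 0.25, limma adjusted p = 0.0495). The ZFP90 difference passed narrowly. It did not pass without any 1 of the 3 controls, any 1 of the 3 shSIRT3-2 libraries or the third shSIRT3-1 library, where it was at -0.41 (limma adjusted p = 0.0598), and its adjusted p ran from 0.00079 to 0.172 over the alternatives. With the replicate number as a block it was 0.00697. In OCI-Ly1, where 4.68% of genes differed and 2.49% were lower, 0 of the 10 genes did with limma, edgeR or DESeq2. There 3 of 10 had an unadjusted p under 0.05 with limma, a share not computed over all genes. TARDBP in Karpas422 was higher with shSIRT3-2 by 0.35 (SE 0.09, limma adjusted p = 0.0202), below 1.5-fold. Over the 30 pairs of member and line, the libraries of the 2 shRNAs overlapped in 15. In the rest shSIRT3-2 lay below in 11 and shSIRT3-1 in 4. The share of all genes separated in this way was not computed, so these counts say nothing particular to the members. SIRT3 had shSIRT3-1 below in all 3 lines.

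Control cells of the 3 lines differed in the level of most of the 10 genes, about as often as over all genes. KIF21B was highest in OCI-Ly1, lower in HBL1 (log2 difference -2.44, SE 0.48, limma adjusted p = 0.0011) and lowest in Karpas422, with HBL1 above Karpas422 by 3.32 (SE 0.48). LPP had the opposite order, with Karpas422 above HBL1 and HBL1 above OCI-Ly1 by 1.00 (SE 0.20, limma adjusted p = 0.0012). C12orf66 was also highest in Karpas422, with log2 differences from it of -1.15 in OCI-Ly1 and -1.53 in HBL1 (SE 0.18 for both), and -0.38 between HBL1 and OCI-Ly1, which did not pass the test (limma adjusted p = 0.087). RHBDD1 was highest in HBL1, and ZFP90 was lowest in Karpas422. TARDBP and TMEM245 stayed within 1.5-fold between all pairs of lines. In all, 6 of the 10 genes differed between OCI-Ly1 and Karpas422, 7 between HBL1 and Karpas422 and 6 between HBL1 and OCI-Ly1, where 50.8%, 54.6% and 54.6% of all genes did. KIF21B differed 54.3-fold between OCI-Ly1 and Karpas422 controls, and 34.2-fold without the second OCI-Ly1 control. Between OCI-Ly1 and HBL1 controls it differed 5.43-fold, and 3.42-fold without that library.

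Per kilobase of mRNA, the control levels ran from 20.9 (TARDBP) to 0.245 (KIF21B) in Karpas422, from 30.2 (TARDBP) to 0.629 (MFSD4A) in OCI-Ly1 and from 25.8 (TARDBP) to 0.339 (MFSD4A) in HBL1. KIF21B was second in OCI-Ly1, at 18.025 with all 3 controls and at 9.13 without the second, and last in Karpas422. LPP, at 4.31 in Karpas422, was at 0.659 in OCI-Ly1.

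Some of the genes share bases with a neighbor. Whether the reads were counted by strand is not given in the sources used here, so reads of genes on opposite strands may not be separable there. MASP2, which encodes a protease of the lectin pathway of complement, lies on the other strand and shares 173 exon bases with TARDBP. It was at 0.647, 1.30 and 0.947 CPM in Karpas422 controls, at 0.139, 0.161 and 0.180 CPM with shSIRT3-1 and at 0.117, 0.167 and 0.212 CPM with shSIRT3-2. In OCI-Ly1 MASP2 was at 1.46, 3.02 and 3.03 CPM, then 0.544, 0.555 and 0.382 CPM, then 0.525, 0.421 and 0.490 CPM. In HBL1 MASP2 was at 2.20, 3.003 and 3.45 CPM, then 0.541, 0.566 and 0.513 CPM, then 0.303, 0.391 and 0.451 CPM. MASP2 was lower over the lines with log2 differences of -2.09 for shSIRT3-1 (SE 0.15, limma adjusted p = 3.8e-10) and -2.23 for shSIRT3-2 (SE 0.15, limma adjusted p = 1.6e-10). It was at 1 CPM or more in 7 control libraries and in 0 of the 18 knockdown libraries, so it passed the filter on low values only through its controls. With no filter the limma adjusted p was 2.2e-09 and 1.3e-09. It stood between 13.2% and 19.7% of control, while TARDBP stood between 45.6% and 61.1%.

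NICN1 shares 353 exon bases with AMT on the same strand. It was lower with shSIRT3-1 over the lines (log2 difference -0.91, SE 0.11) and by less than 1.5-fold with shSIRT3-2 (-0.36, SE 0.11, limma adjusted p = 0.012). In Karpas422 it stood at 51.7% of control with shSIRT3-1 and at 103% with shSIRT3-2, while AMT stood at 46.2% and 63.3%. ELK4, a transcription factor on the other strand that shares 422 exon bases with MFSD4A, was lower with shSIRT3-2 (-0.62, SE 0.09) and at 0.03 (SE 0.09) with shSIRT3-1. LPP-AS2, on the other strand at the start of LPP, was at -0.08 (SE 0.18) and -0.39 (SE 0.18) and passed the test with neither shRNA. Of these 4 overlapping genes, MASP2 was the only gene lower by over 1.5-fold with both shRNAs. MIR32 lies within TMEM245, and at most 0.0107 CPM of it was counted, which is 1 read. MIR28 lies within LPP and is listed at 0 in every library. These counts do not show whether the mature microRNAs were present, which was not tested.

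**Figure D4:**
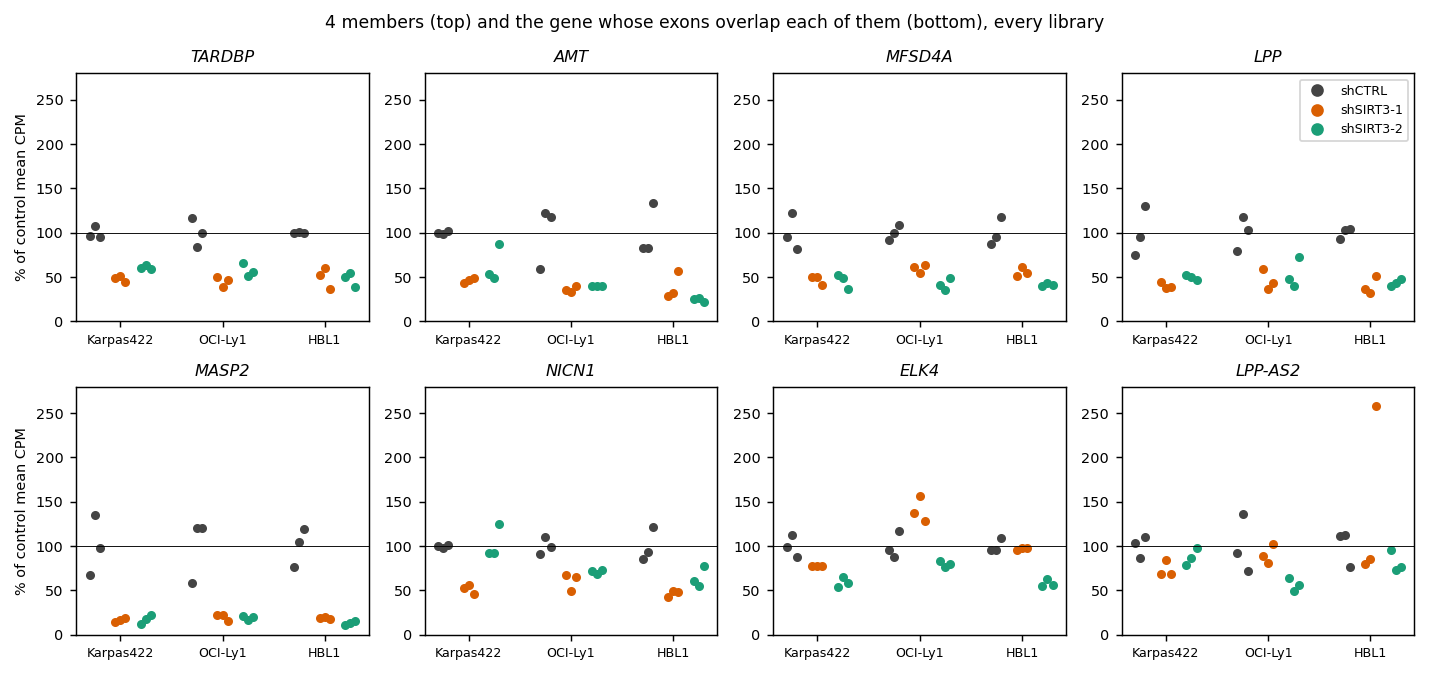
Percent of the control mean in every library for TARDBP, AMT, MFSD4A and LPP (top) and for the gene that overlaps each of them (bottom), by line and shRNA. MASP2 group means stand between 13.2% and 19.7%, whereas those of NICN1, ELK4 and LPP-AS2 reach 103%, 141% and 141%, the last through the third shSIRT3-1 library of HBL1 at 5.21 CPM.

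The nearest tested gene on either side of each member, 20 genes in all, was fitted over the 3 lines. MASP2 and XPOT were lower with both shRNAs, 2 of 20, where 3.98% of all genes were. MASP2 passed the filter on low values only through its controls, so that count is not read as an excess. XPOT, which exports tRNA from the nucleus and lies 182096 bases from C12orf66, was at -1.13 and -1.11 on the log2 scale (SE 0.18 for both). It stood at 38.5% and 29.7% of control in Karpas422 and at 36.7% and 47.3% in HBL1. In OCI-Ly1 XPOT stood at 58.7% and 61.1%, and without the second control, which held 179 CPM against 71.1 and 52.2, at 96.1% and 100.1%. With shSIRT3-1 alone NICN1, IRS1 (-1.05, SE 0.19) and CTNNAL1 (-0.72, SE 0.14) were lower by over 1.5-fold at an adjusted p under 0.05. With shSIRT3-2 alone CDK18 (-0.98, SE 0.17), ELK4, C1orf127 (-1.30, SE 0.31, above the filter only through its controls) and SMPD3 (-1.002, SE 0.15) were. The other 11 neighbors met both limits with neither shRNA, though some passed on the adjusted p alone. COL4A4, 3499 bases from RHBDD1, was at -0.21 and -0.00 (SE 0.22), and TCTA, 302 bases from AMT, was at 0.32 and 0.27 (SE 0.15).

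Relatives and partners of the members, which the rule did not use, were mostly not lower. Of 100 such genes tested in 10 lists, 2 were lower with both shRNAs over the lines, against 3.98% of all genes, and 9 were lower at an unadjusted p under 0.05 with both, where 13.9% of all genes were. No partner was higher with both in the limma fit or with edgeR, and 1 was with DESeq2, where 1.1% of all genes were with limma. At an unadjusted p under 0.05, 5 were higher with both, where 10.3% of all genes were. The median log2 difference over all genes tested was -0.05 with shSIRT3-1 and -0.03 with shSIRT3-2.

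Around AMT, SHMT2, the mitochondrial enzyme that makes glycine from serine, was lower with both (-1.51, SE 0.21, and -1.31, SE 0.21). Of the 5 tested genes of glycine cleavage and lipoylation it was the only gene lower by over 1.5-fold with both. In OCI-Ly1 SHMT2 stood at 55.4% and 65.5% of control, and without the second control at 63.1% and 74.6%. In the other lines it stood between 21.2% and 40.6%. LIAS, the lipoyl synthase, was lower by over 1.5-fold with shSIRT3-2 (-0.82, SE 0.11, limma adjusted p = 3.2e-06). With shSIRT3-1 it was lower by less than 1.5-fold (-0.51, SE 0.11, limma adjusted p = 0.00059). Around TARDBP, 1 of 9 tested transcripts that TDP-43 is known to act on was lower with both. This was HDAC6, a cytoplasmic deacetylase, at -0.72 and -0.68 (SE 0.13 for both). PFKP (-0.81, SE 0.13) and RANBP1 (-0.71, SE 0.21) were lower with shSIRT3-1 and stood at 0.11 with shSIRT3-2. None of the 12 other RNA-binding relatives of TDP-43 changed by over 1.5-fold at an adjusted p under 0.05, with medians of 0.09 and 0.19. HNRNPA3 was higher with both by less than 1.5-fold (0.21 and 0.55, SE 0.07 for both, limma adjusted p = 0.0195 and 2.0e-06). Others passed on the adjusted p alone with a single shRNA, lower with shSIRT3-1 or higher with shSIRT3-2.

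The other lists held 0 genes lower by over 1.5-fold with both shRNAs. Around C12orf66, none of the 11 genes of KICSTOR and GATOR changed by over 1.5-fold at an adjusted p under 0.05 with either shRNA. Their medians were 0.14 and -0.01. On the adjusted p alone MIOS was lower with both (-0.38 and -0.34, SE 0.07 for both, limma adjusted p = 0.00025 and 0.00067). NPRL3 was lower on it with shSIRT3-1 and NPRL2 with shSIRT3-2, while KPTN and WDR59 were higher with shSIRT3-1. KPTN and ITFG2, which encode KICSTOR subunits, were at 0.47 and 0.18 with shSIRT3-1 and at -0.01 and 0.22 with shSIRT3-2. The 10 tested genes of ATP synthase and its assembly had medians of 0.01 and 0.05, and none changed by over 1.5-fold at an adjusted p under 0.05. On the adjusted p alone ATP5C1 (-0.32) was lower and ATPAF2 (0.32) higher with shSIRT3-1, and TMEM242 (-0.38) was lower with shSIRT3-2. Of the 12 tested rhomboid and ER degradation genes, VCP rose with shSIRT3-2 (0.63, SE 0.10). Of 11 zyxin relatives and partners, ZYX was lower with shSIRT3-1 (-1.07, SE 0.19), and with shSIRT3-2 EVL was lower while ENAH and ACTN1 were higher, ACTN1 above the filter only through knockdown libraries. Of 12 other kinesins, KIF3B was lower with shSIRT3-1 (-0.62, SE 0.10) and KIF27 with shSIRT3-2 (-0.61, SE 0.20). None of the 10 tested MFSD transporters changed by over 1.5-fold at an adjusted p under 0.05. MFSD5 was higher with both by less than 1.5-fold (0.47 and 0.36, SE 0.06 for both, limma adjusted p = 3.4e-06 and 9.4e-05). Others passed on the adjusted p alone with a single shRNA, some higher and some lower. Of 8 KRAB co-repressor genes, ATF7IP, CBX1 and CBX5 were lower by over 1.5-fold with shSIRT3-1. With shSIRT3-2, by less than 1.5-fold, ATF7IP (-0.40) and CBX5 (-0.43) were lower and CBX1 (0.56) was higher (limma adjusted p = 0.0046, 0.021 and 0.0016). On the adjusted p alone SETDB1 was lower with both (-0.28 and -0.30), and TRIM28 (0.41) and CBX3 (0.26) were higher with shSIRT3-2.

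Targets of ATF4 fell together with the members, and their part in the members' falls was not tested. All 14 targets tested, a list chosen with results of these libraries known, were lower with both shRNAs over the lines, with median log2 differences of -2.35 and -2.32. Without the second replicate of every group, which holds the OCI-Ly1 control that stood apart, 9 of 14 were. CHAC1, which degrades glutathione, was at -3.74 and -4.25 (SE 0.49 for both), CTH, which makes cysteine, at -2.95 and -3.11 (SE 0.33), PHGDH of serine synthesis at -2.66 and -2.41 (SE 0.44), and ATF3, a stress transcription factor, at -2.73 and -2.80 (SE 0.40). Those 4 have the largest mean changes. The 14 targets ranged from -1.27 to -3.74 with shSIRT3-1 and from -0.82 to -4.25 with shSIRT3-2. The 10 members ranged from -0.65 to -2.59 and from -0.86 to -2.89, so the ranges overlap, and AMT (-1.22 and -1.23) and LPP (-1.24 and -1.02) lay beside the smaller changes of the targets. ATF4 itself stood between 35.3% and 49.4% of control in Karpas422 and HBL1. In OCI-Ly1 it stood at 68.6% and 64.9%, and without the second control at 98.95% and 93.6%. These are mRNA levels. The paper reports ATF4 mRNA unchanged by qPCR at earlier days with ATF4 protein lower, and protein was not measured here.

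Among the B-cell markers, 0 of 6 were lower with both shRNAs, and CD22, a B-cell surface receptor, was lower with shSIRT3-2 (-2.12, SE 0.41). Of the other-cell markers, EPCAM was lower with shSIRT3-2 (-0.62, SE 0.15), and CD3E, CD14, LYZ and KRT8 were too low to test.

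The members varied together across libraries once the mean of each line was taken out. Each correlated with the mean of the other 9 at r from 0.86 (ZFP90) to 0.98 (RHBDD1) over 27 libraries, a description that the choice of the genes largely fixes. Of the 13066 other genes tested, those most like the mean of the 10 were MASP2 (r = 0.97), PMS2, a mismatch repair gene (r = 0.95), ZXDB, a zinc finger gene (r = 0.95), CTH (r = 0.95) and YIPF4, a Golgi membrane protein gene (r = 0.94). SIRT3 was at r = 0.85, rank 178. The libraries of a group share their shRNA and line, so these values are not independent of the groups.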

How the data were processed

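Total RNA of 3 DLBCL lines was taken at day 8 after infection, made into random-primed TruSeq libraries, sequenced as paired ends, aligned by the authors to hg19 with STAR and counted on RefSeq genes with Rsubread; STAR and hg19 are also named in the submitters' processing notes. The values deposited for each library are labelled FPKM but are CPM: 100% are whole multiples, within 0.01 read, of the library's smallest value whatever the gene's length. Reads on genes made up 40.3% to 45.6% of the total to which the authors scaled each library. Versions and the strand setting are not given in the sources used here. Groups and replicate numbers come from the sample titles. The paper says that the knockdown was done in replicates in each line, but not whether these were separate infections. The p-values therefore measure the spread between these libraries, which may be technical in part or in whole. The deviations of same-numbered libraries from their group means correlated at r of at least 0.217 in HBL1, 0.109 in OCI-Ly1 and 0.014 in Karpas422. The mean r was 0.398, 0.271 and 0.291 in that order, against -0.139 for libraries of other numbers within a line. The numbers may therefore pair libraries in all 3 lines. The main fits have no block and leave such a pairing out, and a fit with the replicate number as a block is given among the alternatives. All 27 pairs of replicates differed by more than sampling noise (chi-square per degree of freedom 6.74 to 282). The highest values, 239 and 282, were those of the third shSIRT3-1 library of HBL1 against the first and the second, which were at 18.9 between themselves.

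Values were fitted as log2(CPM + 0.1), which understates the change of low genes, with limma 3.58.1 (trend) in R 4.3.3, for genes at 1 CPM or more in 3 or more libraries. Fits covered all 27 libraries with line as an additive term, as in the study's own model, 9 libraries of a line, or the 9 controls. A call needed over 1.5-fold and a Benjamini-Hochberg adjusted p under 0.05 over all genes tested. The difference between lines in the shSIRT3-2 to shSIRT3-1 comparison was added after the data were seen. The members and all lists were chosen with earlier results of these data known. Genes named were the members, SIRT3, up to 4 genes a list called with both shRNAs, called neighbors, the 5 genes most like the members' mean, and genes just inside and just outside the rule's threshold; partners called with a single shRNA or named for their role, TCTA, COL4A4, LPP-AS2 and the marker genes were named after their values were seen. Alternatives were other pseudocounts (1 and 0.01), no filter, 3 scalings, a replicate block, no trend, edgeR 4.0.16 and DESeq2 1.42.0 on the recovered reads, and libraries left out. The values without the second OCI-Ly1 control, and those without the third shSIRT3-1 library of HBL1, were added after the data were seen. The fits were tested on simulated data. Annotation was GENCODE v44 on hg19, in which C12orf66 is KICS2; promoters came from RefSeq, GRCh38.p14, and the promoters of KIF21B and MFSD4A were not analysed here. Some genes are not reported here.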

Additional observations from a re-analysis of the deposited data

Results flagged for a closer look

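The difference between the SIRT3 shRNAs was compared between lines by an F test, added after the data were seen, which 24.6% of all genes tested passed. TMEM245 passed (limma adjusted p = 0.00361), with log2 differences of shSIRT3-2 minus shSIRT3-1 of -0.19 for Karpas422, -0.28 for OCI-Ly1 and -0.79 for HBL1. ZFP90 passed (limma adjusted p = 0.0255), at 0.33, 0.04 and -0.72. It did not pass without the third shSIRT3-2 library of Karpas422 (0.0519), the third shSIRT3-1 library of HBL1 (0.0731), or the first or second shSIRT3-2 library of HBL1 (0.0721 and 0.0685). SIRT3 itself passed (limma adjusted p = 0.0187), at 0.99, 1.70 and 0.56, and did not pass without the first or the third shSIRT3-2 library of OCI-Ly1 (0.0522 and 0.0506). With a whole replicate number left out the adjusted p rose to 0.144 for TMEM245, 0.164 for ZFP90 and 0.169 for SIRT3. What lies behind these differences was not tested.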

How the results depend on the processing

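Of the 10 genes, 4 met the rule with no filter on low values and 4 with quantile normalization, 7 with a pseudocount of 1, and 8 with median-ratio scaling, scaling to the sum over genes, edgeR, DESeq2 or no variance trend. Against 12 genes in all, 5 met it with no filter, 6 with quantile normalization and 29 with DESeq2. With a replicate number or 1 library left out, 0 to 10 of the 10 genes met it: 7 to 10 for libraries of Karpas422, 8 to 10 for HBL1 and 0 to 10 for OCI-Ly1. Between the SIRT3 shRNAs, 0 members passed in Karpas422 with a pseudocount of 1 or quantile normalization (0 with any replicate number left out, where KIF21B no longer passed the filter on low values) and 1 in HBL1 with a pseudocount of 1, no filter or no variance trend (0 to 1 with replicate numbers left out, with TMEM245 at an adjusted p of 0.0647 without replicate 1). Partners higher with both shRNAs numbered 1 with DESeq2 and 0 to 1 with replicates left out, and ATF4 targets lower with both 9 to 14. No called result reversed its direction; the median over all genes, -0.05 and -0.03, was 0.03 with both shRNAs under quantile normalization, and the uncalled AMT difference changed sign. With a replicate block all 10 genes met the rule, among 16 genes, and no call given here changed; ZFP90 in HBL1 was at an adjusted p of 0.00697. Depth limits KIF21B in Karpas422, with 6 reads in 1 library. The cause of these changes was not tested.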
